A study of Mus musculus with 21 samples.

Results

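Tuft cells are rare chemosensory cells of the gut epithelium. The transcription factor Pou2f3 is required for them to form, and they sense luminal signals through a taste-like cascade that ends at the cation channel Trpm5. They release the cytokine IL-25, which in the small intestine activates type 2 innate lymphoid cells, whose IL-13 acts back on the epithelium, and they make lipid mediators through enzymes such as Alox5. Dclk1, a microtubule-associated kinase that is also expressed in neurons, is widely used to mark tuft cells in normal gut and has been followed in intestinal tumours. Here 8 tuft cell genes, Dclk1, Pou2f3, Trpm5, Avil, Il25, Alox5, Sh2d6 and Gfi1b, were selected by symbol from a count table of 24062 genes. Of these 8, 7 had a row, and Sh2d6 was not analysed here. The filter on low counts left 5 of them among 15936 tested genes, namely Dclk1, Pou2f3, Trpm5, Avil and Alox5.

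Total RNA depleted of ribosomal RNA was sequenced from mouse colon in 21 libraries, 3 in each of 7 groups. All mice were on the C57BL/6 background, and were either wild-type or carried App NL-G-F, a knock-in that gives the mouse App gene a humanised amyloid sequence with mutations of familial Alzheimer's disease. Tumours came from treatment with AOM/DSS, the carcinogen azoxymethane followed by dextran sulfate sodium, an agent that damages the colonic mucosa. The groups compared were normal colon and tumour of wild-type males, knock-in males and wild-type females, and normal colon of knock-in females. A knock-in female tumour group was not analysed here. The labels call the normal libraries untreated, while the series text speaks of tissue beside tumours or of colon in which no tumour formed, so whether a normal library saw AOM/DSS was not settled. The labels do not say whether the 3 libraries of a group are separate animals, so p-values measure only the spread between libraries.

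Library totals ran from 3414123 counts in replicate 2 of the wild-type male tumours to 26174008 in replicate 1 of the wild-type female normal colon. Levels are given as CPM, counts scaled to a common library size with TMM factors. The 14 general epithelial genes summed to 8915 to 11627 CPM in normal colon and 8140 to 8500 CPM in tumours of wild-type males, and to 11028 to 12058 CPM and 6963 to 8113 CPM in wild-type females, without overlap. In knock-in males the sums overlapped, at 8847 to 9367 CPM and 8007 to 9591 CPM. Of the 14 genes, 5 were lower and 2 higher in wild-type male tumours, and 8 were lower and 1 higher in wild-type female tumours. Marker genes of other cell types also differed in tumours, and cell number and RNA per cell cannot be told apart in these values. All 9 smooth muscle genes were lower in tumours of the 3 kinds, with summed levels of 2027 to 9994 CPM in normal colon and 209 to 1064 CPM in tumours. Goblet cell genes were lower for 7, 5 and 7 of 7 in tumours of wild-type males, knock-in males and wild-type females. Enteroendocrine genes were lower for 7, 6 and 8 of 8 in the same order.

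The members are spread over the genome, and 3 of them passed the test in at least 1 comparison. In GRCm38 with the GENCODE M21 annotation, Dclk1 lies on the plus strand at chr3:55242364-55539068, Trpm5 on the minus strand at chr7:143069153-143094642 and Avil on the plus strand at chr10:127000709-127020994. Pou2f3 lies at chr9:43123939-43210369, Alox5 at chr6:116410077-116461178, Gfi1b at chr2:28609450-28621982 and Sh2d6 at chr6:72513641-72521707, all on the minus strand, and Il25 at chr14:54932695-54935837 on the plus strand. The last 9423 bases of Avil overlap Tsfm, which lies on the other strand, and 1845 bases of Trpm5 overlap Tssc4. The strand setting of the counting was not given in the sources used here, so reads from the overlaps cannot be told apart. Tsfm itself differed by 0.03, 0.14 and 0.48 on the log2 scale between tumour and normal colon in wild-type males, knock-in males and wild-type females. The levels of Tssc4 were not examined here, and the part of such reads in the Trpm5 values was not tested.

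The 250 bases before the annotated starts are shown for the 3 genes that passed a test, since these are the sequences a reader would search for shared control elements. They were read from RefSeq on GRCm38.p6, run 5′ to 3′ on the gene's strand, and capitals mark ATGCAAA or its reverse complement TTTGCAT. Avil, chr10:127000459-127000708, plus strand; Dclk1 at its upstream start, chr3:55242114-55242363, plus strand; Dclk1 at its downstream start, chr3:55461478-55461727, plus strand; and Trpm5, chr7:143094643-143094892, minus strand, follow in that order.
Avil: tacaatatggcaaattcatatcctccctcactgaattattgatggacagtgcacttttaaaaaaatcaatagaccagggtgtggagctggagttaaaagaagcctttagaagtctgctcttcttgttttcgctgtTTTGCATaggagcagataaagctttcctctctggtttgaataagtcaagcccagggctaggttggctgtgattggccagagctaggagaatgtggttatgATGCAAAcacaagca
Dclk1 upstream start: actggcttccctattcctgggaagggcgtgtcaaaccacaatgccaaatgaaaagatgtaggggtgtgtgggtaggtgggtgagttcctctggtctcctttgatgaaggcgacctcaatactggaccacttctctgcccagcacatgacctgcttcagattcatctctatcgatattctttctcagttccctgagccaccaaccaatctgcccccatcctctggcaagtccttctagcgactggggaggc
Dclk1 downstream start: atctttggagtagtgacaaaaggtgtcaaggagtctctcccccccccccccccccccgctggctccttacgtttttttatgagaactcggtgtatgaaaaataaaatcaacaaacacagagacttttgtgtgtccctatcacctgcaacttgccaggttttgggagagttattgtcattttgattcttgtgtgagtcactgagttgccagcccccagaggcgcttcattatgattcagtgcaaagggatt
Trpm5: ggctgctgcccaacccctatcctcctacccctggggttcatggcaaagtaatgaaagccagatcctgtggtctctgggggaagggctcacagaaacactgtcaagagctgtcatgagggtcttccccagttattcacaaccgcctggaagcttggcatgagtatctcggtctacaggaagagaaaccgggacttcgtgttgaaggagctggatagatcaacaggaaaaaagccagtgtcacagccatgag

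RefSeq windows of 300 bases, from 250 before to 50 after a start, were matched by symbol for 6 of the 8 members, in 7 windows. The octamer bound by POU factors, ATGCAAAT, was searched on both strands and was found in none of the 7 windows. Of all 32851 windows, 570 held it, which is 1.735%. The same motif without its last base, a search chosen after the sequences had been seen, was found in 1 of the 7, that of Avil, and in 1520 of all windows, or 4.627%. The Avil matches begin 15 and 115 bases before the start. These are matches of letters and say nothing of binding. Dclk1 has a pair of annotated starts, and the gene-level counts sum over both.

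Dclk1 fell in all 3 tumour comparisons. In wild-type males it stood at 25.9, 25.5 and 20.8 CPM in normal colon and at 7.56, 11.9 and 9.12 CPM in tumours. The tumour values all lay below the normal ones, with a log2 fold change of -1.38 (SE 0.196) and an adjusted p of 5.43e-05 by edgeR (quasi-likelihood test, p-values adjusted over all tested genes by Benjamini-Hochberg), used throughout. In wild-type females the values were 32.6, 26.2 and 25.7 CPM in normal colon and 10.6, 9.94 and 9.35 CPM in tumours, which gave a log2 fold change of -1.51 with an SE of 0.194 (edgeR adjusted p = 6.08e-06). In knock-in males they were 17.7, 27.0 and 20.9 CPM in normal colon and 15.7, 13.1 and 12.1 CPM in tumours. This was a smaller fold change, -0.68 (SE 0.186), with an adjusted p of 0.0174 by edgeR, although here too the groups did not overlap. The knock-in male call was lost without normal replicate 2 (adjusted p = 0.0777), without tumour replicate 2 (0.0548) and without tumour replicate 3 (0.0578) in the same edgeR test.

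Because whole tissue was sequenced, fewer tuft cells and less Dclk1 RNA per cell cannot be told apart in these values, and the same holds for every gene below. Relative to the mean log2 level of the 14 epithelial genes, Dclk1 stood at -3.95 ± 0.32 in the normal colon of wild-type males and at -5.16 ± 0.33 in their tumours (SD, n = 3). These genes were themselves lower in sum in wild-type tumours, so a level relative to them shows less of a fall than the CPM. Scaling by their summed counts in place of TMM gave log2 fold changes of -1.13, -0.60 and -0.91 in wild-type males, knock-in males and wild-type females. The adjusted p was then 0.000935, 0.0613 and 0.00152 by edgeR, so that the knock-in male call was lost. That scaling raised the median of all genes by 0.26 in wild-type males and by 0.60 in wild-type females. Enteric neuron and glia genes, which mark cells that can also hold Dclk1, were lower for 8 of 11 in wild-type male tumours and 3 of 11 in knock-in male tumours, and in wild-type female tumours 5 of 11 were lower and 1 higher. The gene that was higher there is Ret, a receptor tyrosine kinase, with a log2 fold change of 2.80. Summed without Ret, which was left out after its values were seen, the other 10 genes stood at 34.5 ± 5.27 CPM in normal colon and 11.3 ± 1.84 CPM in tumours of wild-type males (SD, n = 3). In knock-in males the sums were 33.1 ± 4.39 and 18.8 ± 2.68 CPM, and in wild-type females 35.3 ± 8.20 and 12.0 ± 2.43 CPM, without overlap in any of these comparisons. Without Ret this sum was lower in the same 3 comparisons as Dclk1, and in knock-in female normal colon it stood at 55.4 ± 14.6 CPM. With Ret, which had the largest share in tumours, the mean was 51.7 CPM in normal colon and 49.6 CPM in tumours of wild-type males. It went from 53.1 to 60.4 CPM in knock-in males and from 42.6 to 62.9 CPM in wild-type females, with overlap in each comparison. The likeness of the sum to Dclk1 thus depends on the gene left out. The part of these cells in the Dclk1 values was not tested. Across groups the mean level of Dclk1 ran from 28.2 CPM in wild-type female normal colon through 24.0, 21.9 and 21.3 CPM in wild-type male, knock-in male and knock-in female normal colon. The 3 tumour groups followed at 13.6, 9.96 and 9.54 CPM in knock-in males, wild-type females and wild-type males, and neighbours within the normal groups overlapped.

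**Figure D1:**
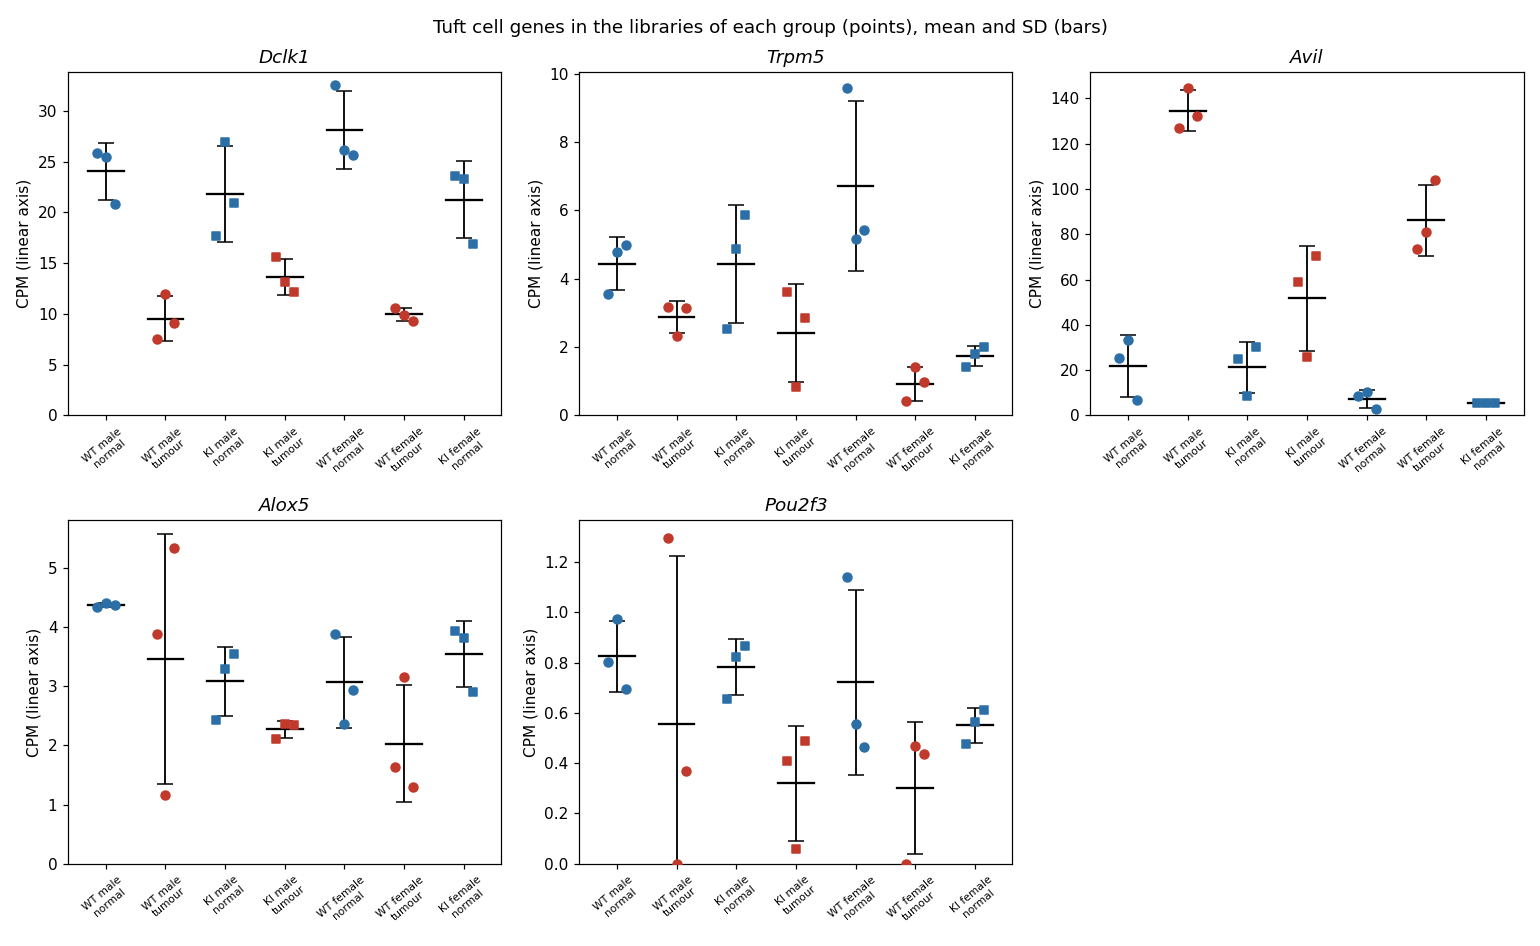
CPM (linear axis from 0) of the 5 tested tuft cell genes in each library, by group; circles are wild-type (WT), squares knock-in (KI), blue normal colon and red tumour, with the group mean and SD as bars (SD bars are cut at 0). Dclk1 sits lower in the 3 tumour groups, Avil is highest in wild-type tumours at 73.5 to 145 CPM, and Trpm5 is lowest in wild-type female tumours and knock-in female normal colon.

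Trpm5, the cation channel that depolarises the tuft cell after a stimulus, fell in wild-type female tumours. Its values there were 0.407, 1.40 and 0.979 CPM, from 3 to 12 raw counts, against 9.60, 5.16 and 5.42 CPM in wild-type female normal colon. The log2 fold change was -2.84 (SE 0.497), with an adjusted p of 0.000127 by edgeR, and it was -2.26 (adjusted p = 0.000631) after scaling by epithelial genes. In wild-type males the channel stood at 3.54, 4.79 and 4.97 CPM in normal colon and at 3.17, 2.33 and 3.13 CPM in tumours. These groups did not overlap, but the log2 fold change of -0.58 (SE 0.446) did not pass the edgeR test (adjusted p = 0.324). In knock-in males the values were 2.52, 4.87 and 5.88 CPM in normal colon and 3.61, 0.828 and 2.84 CPM in tumours, with overlap and a log2 fold change of -0.88 (adjusted p = 0.155 by edgeR). The difference of the tumour effect between wild-type females and males was -2.26 (SE 0.665), with an adjusted p of 0.104 by edgeR, and 1.12% of all genes passed that test. DESeq2's Wald test (adjusted p = 0.0355) and limma voom with quality weights (0.00885) did call it.

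Avil moved the other way in the same samples. It encodes advillin, an actin-binding protein of the tuft cell's microvillar bundles that is also found in sensory neurons. In wild-type males it stood at 25.5, 33.2 and 6.67 CPM in normal colon and at 127, 145 and 132 CPM in tumours, a log2 fold change of 2.61 with an SE of 0.537 (edgeR adjusted p = 0.00163). In wild-type females it stood at 8.75, 10.2 and 2.79 CPM in normal colon and at 73.5, 81.1 and 104 CPM in tumours, a log2 fold change of 3.53 with an SE of 0.580 (edgeR adjusted p = 0.000122). All wild-type tumours were thus above every normal library. In knock-in males it stood at 25.0, 8.55 and 30.1 CPM in normal colon and at 58.7, 25.8 and 70.5 CPM in tumours. These overlapped through tumour replicate 2, and the log2 fold change of 1.29 (SE 0.522) had an adjusted p of 0.0881 by edgeR. Relative to the 14 epithelial genes, Avil rose from -4.37 ± 1.35 to -1.34 ± 0.11 (SD, n = 3) on the log2 scale in wild-type males. The group means of Avil ran from 135, 86.1 and 51.7 CPM in tumours of wild-type males, wild-type females and knock-in males to 21.8 and 21.2 CPM in wild-type and knock-in male normal colon. Normal colon of wild-type females (7.24 CPM) and knock-in females (5.53 CPM) came last, and each of these last pairs overlapped. Tsfm, which overlaps it, passed in wild-type females (0.48, adjusted p = 0.0333 by edgeR) and did not pass in wild-type or knock-in males. The part of reads from the overlap in the Avil values was not tested.

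**Figure D2:**
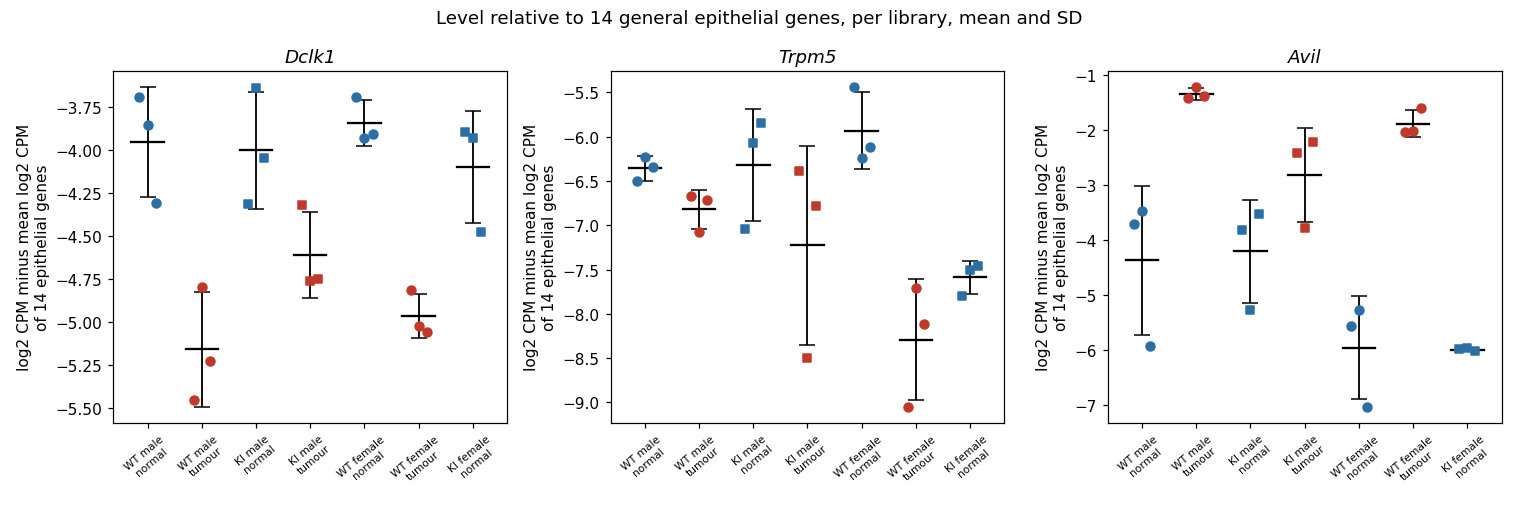
Log2 CPM of Dclk1, Trpm5 and Avil minus the mean log2 CPM of 14 general epithelial genes (linear axes that differ between panels), per library and group, with mean and SD bars; circles are wild-type (WT), squares knock-in (KI), blue normal colon and red tumour. Per epithelial RNA, Dclk1 is lower and Avil higher in wild-type tumours, as in the CPM values.

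Alox5, the 5-lipoxygenase of leukotriene synthesis, which leukocytes also express, did not pass the test in any comparison. Its group means lay between 2.03 ± 0.99 CPM in wild-type female tumours and 4.38 ± 0.04 CPM in the normal colon of wild-type males (SD, n = 3). Its log2 fold changes from normal colon to tumour were -0.25, -0.44 and -0.62 in wild-type males, knock-in males and wild-type females. The smallest adjusted p among these was 0.198 by edgeR, in wild-type females, where limma voom with quality weights (adjusted p = 0.0356) and edgeR without tumour replicate 2 (0.0441) did call it.

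Pou2f3, the transcription factor that specifies tuft cells, gave 164 counts over all 21 libraries and 0 in 2 of them. In knock-in males it stood at 0.654, 0.823 and 0.864 CPM in normal colon and at 0.408, 0.0592 and 0.489 CPM in tumours, without overlap. In wild-type males and females the groups overlapped, at 0.465 to 1.14 CPM in normal colon and 0 to 1.30 CPM in tumours. Its log2 fold changes were -0.27 (SE 0.694), -1.35 (SE 0.739) and -1.30 (SE 0.794) in the 3 tumour comparisons, none past the edgeR test, the smallest adjusted p being 0.184. Il25, the cytokine that signals to type 2 lymphoid cells, gave 5 counts in all and 0 in 18 of 21 libraries, never above the floor of 3 counts. Gfi1b, a transcriptional repressor of blood lineages that also marks tuft cells, gave 56 counts in all, with a highest count of 11. The filter on low counts left both out. Without it neither passed in any of the 12 comparisons and interactions, the smallest adjusted p being 0.189 for Gfi1b and 0.349 for Il25 by edgeR.

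Read by comparison, 2 of the 5 tested genes passed in wild-type male tumours, Avil higher and Dclk1 lower, where 35.7% of all tested genes passed. In knock-in male tumours 1 of 5 passed, Dclk1 lower, beside 20.4% of all genes. In wild-type female tumours 3 of 5 passed, Avil higher and Dclk1 and Trpm5 lower, beside 49.1% of all genes. Their median log2 fold changes were -0.27, -0.68 and -1.30 beside 0.01, 0.01 and 0.01 for all genes. Groups did not overlap for 3 of the 5 genes in each of these comparisons, beside 52.4%, 33.6% and 58.4% of all genes. The genes without overlap were Dclk1, Trpm5 and Avil in wild-type males and females, and Dclk1, Pou2f3 and Alox5 in knock-in males. The genes that passed did not move in a single direction in wild-type tumours.

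The genotype comparisons gave 1 call. In normal colon of females Trpm5 was lower in knock-in mice, at 1.43, 1.80 and 1.99 CPM, against the wild-type values of 9.60, 5.16 and 5.42 CPM. The log2 difference was -1.97 (SE 0.453), with an adjusted p of 0.00733 by edgeR, where 16% of all genes passed. Without wild-type normal replicate 1, the deepest library, it was -1.60 with an adjusted p of 0.0539. The wild-type female normal libraries serve both here and in the tumour comparison, so these calls on Trpm5 are not independent. The other 4 tested genes did not pass. Dclk1 stood at 23.6, 23.3 and 16.9 CPM in the knock-in libraries and differed by -0.41 (SE 0.185, adjusted p = 0.137), with no overlap between groups, so that 2 of 5 genes did not overlap, beside 37.8% of all genes. Goblet cell genes were lower for 5 of 7 and smooth muscle genes higher for 4 of 9 in the same knock-in libraries, and their part in the Trpm5 value was not tested. After scaling by epithelial genes Trpm5 differed by -1.85 (adjusted p = 0.0118 by edgeR).

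In normal colon of males no member passed between genotypes. Alox5 was at 4.35 to 4.42 CPM in wild-type and 2.43 to 3.54 CPM in knock-in libraries, a log2 difference of -0.50 (95% interval -1.27 to 0.28). The 95% intervals were wide for Pou2f3 (-1.49 to 1.34) and Avil (-1.18 to 1.05). Trpm5 differed by 0.01 (95% interval -0.90 to 0.92) and Dclk1 by -0.14 (95% interval -0.53 to 0.26) on the log2 scale. Of all genes, 0.0126% passed by edgeR. The difference of the genotype effect on Trpm5 between females and males was -1.98 (SE 0.619), with an adjusted p of 0.0959 by edgeR, beside 2.54% of all genes passing.

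In male tumours no member passed between genotypes, where 14.5% of all genes did. Avil was at 58.7, 25.8 and 70.5 CPM in knock-in and at 127, 145 and 132 CPM in wild-type tumours, so the groups did not overlap, as for 36.4% of all genes. The log2 difference was -1.38 (SE 0.513, adjusted p = 0.0784 by edgeR), and limma voom with quality weights called it (adjusted p = 0.0181). Each knock-in tumour lay above each wild-type tumour for Dclk1, with a log2 difference of 0.56 (SE 0.196) and an adjusted p of 0.0617 by edgeR. Without wild-type tumour replicate 2 that became 0.71 with an adjusted p of 0.0459. The difference of the tumour effect between genotypes was 0.69 (SE 0.269) for Dclk1 and -1.32 (SE 0.728) for Avil, with adjusted p of 0.127 and 0.264 by edgeR, and 1.51% of all genes passed.

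No member passed between females and males. In wild-type normal colon Avil differed by -1.56 (SE 0.557, adjusted p = 0.0676 by edgeR), from 21.8 ± 13.7 CPM in males to 7.24 ± 3.92 CPM in females (SD, n = 3), and 15.9% of all genes passed. In knock-in normal colon it differed by -1.93 (adjusted p = 0.119), beside 0.584% of all genes. In wild-type tumours Trpm5 differed by -1.63 (SE 0.511, adjusted p = 0.0929 by edgeR), beside 0.86% of all genes.

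**Figure D3:**
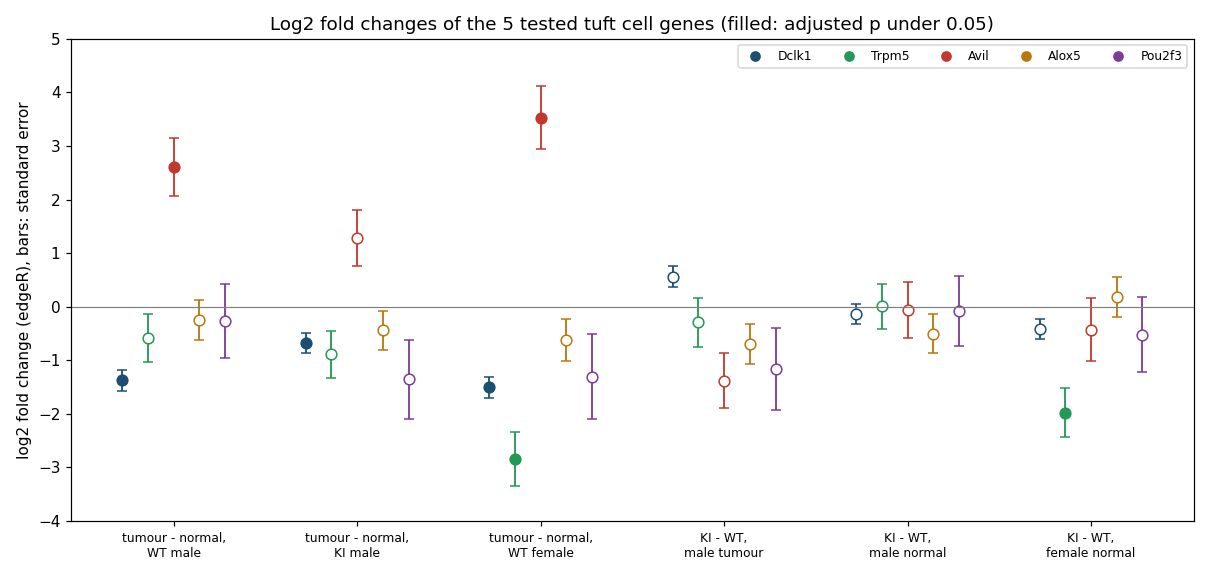
EdgeR log2 fold changes (linear axis) with standard errors for the 5 tested tuft cell genes in 6 comparisons; filled points have an adjusted p under 0.05 and open points do not. Avil and Dclk1 lie on opposite sides of 0 in all 3 tumour comparisons, and Trpm5 is filled only for wild-type female tumours and for knock-in against wild-type female normal colon.

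Across the 21 libraries the log2 CPM of Dclk1 and Avil had r = -0.81, with r = -0.09 over the 12 normal and r = -0.62 over the 9 tumour libraries. That of Dclk1 and Trpm5 had r = 0.59 over all, 0.57 over normal and 0.02 over tumour libraries. These libraries share their group differences and vary in depth, so the values are descriptions. The genes most like Dclk1 over the 21 libraries were Disp2 (r = 0.94), Pigr (0.94), Acp5 (0.94), Scn7a (0.94) and Slc35a2 (0.94). For Pou2f3 they were Hoxa6 (0.79), Tmem143 (0.78), Crym (0.78), Alkbh4 (0.78) and Atg13 (0.77), and for Alox5 AI462493 (0.77), AI837181 (0.77), Tmem143 (0.76), Wdr45 (0.74) and Ube3b (0.74). Within the 12 normal libraries these values were lower, at 0.45 to 0.62 for the genes named with Dclk1, -0.09 (Crym) to 0.45 (Atg13) for those with Pou2f3 and 0.13 (AI462493) to 0.51 (AI837181) for those with Alox5. Within the 9 tumour libraries they were 0.69 to 0.89 for Dclk1, 0.72 to 0.98 for Pou2f3 and 0.73 to 0.92 for Alox5. Pou2f3 had a mean of 7.81 counts per library, under the minimum of 10 used for correlations between members. Avil and Trpm5 were added after their values were seen. Avil was most like Prr18 (0.98), B4galnt4 (0.97) and Focad (0.97), and Trpm5 most like Trim14 (0.86) and Acox3 (0.86). Within normal libraries these were 0.94 to 0.96 for Avil and 0.75 and 0.78 for Trpm5. Within tumour libraries they were 0.84 to 0.92 for Avil and 0.84 and 0.82 for Trpm5.

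Of 50 other genes known from tuft cells, in lists of sensing and signalling, lipid mediators, transcription and fate, and structure, 39 were tested. In wild-type male tumours 10 were higher and 8 lower, in knock-in male tumours 5 higher and 6 lower, and in wild-type female tumours 11 higher and 12 lower. Of all genes, 16.5%, 10.4% and 25% were higher and 19.3%, 9.97% and 24% lower in the same comparisons. The median log2 fold changes of the 39 were -0.05, -0.39 and -0.19. Krt23, a keratin, was the most raised in wild-type males (2.32) and females (4.09), with adjusted p of 0.00587 and 9.78e-05 by edgeR. Cd300lf, a receptor of myeloid cells as well, rose by 1.77 in wild-type males. In the same tumours 2 of 6 neutrophil genes were higher, with summed levels of 33.1 to 65.2 CPM against 1.89 to 24.9 CPM in normal colon, and their part in Cd300lf was not tested. Ascl2, a transcription factor of crypt stem cells, rose by 3.12 in wild-type female tumours. In knock-in male tumours Nrep rose by 1.46 and Runx1 by 0.77, and the Runx1 call was lost without 4 of the 6 libraries in turn. Both also passed in wild-type tumours, Nrep at 1.63 in males and 2.50 in females and Runx1 at 0.97 and 1.68. These wild-type calls held with each library left out in turn.

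The lower genes included Adh1, an alcohol dehydrogenase, at -3.18, -1.77 and -3.98 in wild-type males, knock-in males and wild-type females. Hepacam2, a cell adhesion gene that goblet cells also express, stood at -2.73 in wild-type males and -2.87 in wild-type females. In each of these 7 of 7 goblet cell genes were lower. In knock-in males, where 5 of 7 were lower, Hepacam2 stood at -0.85, a call lost without 4 of the 6 libraries in turn. Spib, an Ets factor also of B cells, stood at -2.56 in tumours of knock-in males and at -3.97 in those of wild-type females, where 4 and 5 of 7 B cell genes were lower as well. The part of goblet and B cells in these values was not tested. Rgs13, a regulator of G protein signalling chosen after its values were seen, fell by 2.81 in wild-type female tumours and differed by -2.32 in knock-in against wild-type female normal colon (adjusted p = 0.000393 and 0.00509 by edgeR), the same comparisons in which Trpm5 was lower. It had 8 to 60 counts in wild-type female normal libraries, 1 to 3 in the tumours and 4 to 6 in the knock-in libraries. Both calls held when each of the 6 libraries was left out in turn. Because Rgs13 was chosen after its values were seen, its likeness to Trpm5 lends no support. Both genes also rest on the same wild-type female normal libraries, and the tumour counts of Rgs13 did not exceed the floor of 3.

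**Figure D4:**
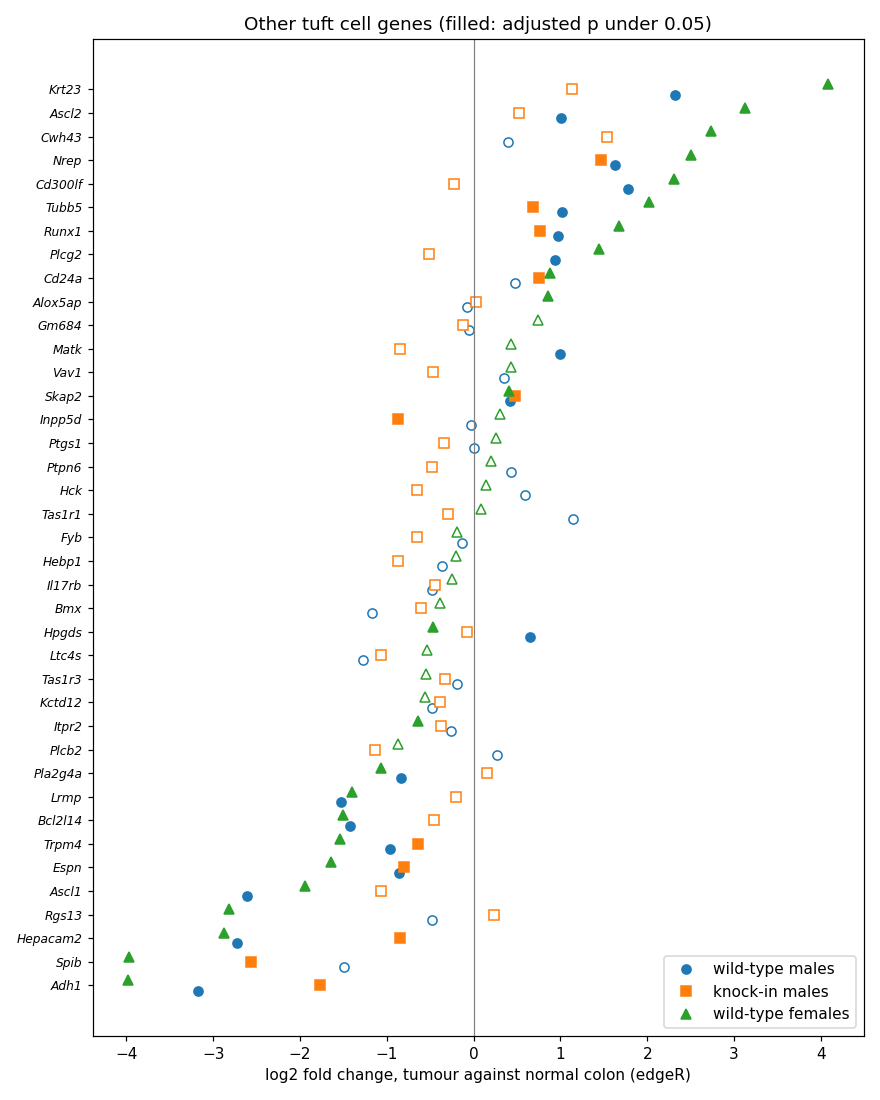
Log2 fold changes (linear axis) from normal colon to tumour of the 39 other tuft cell genes tested, ordered by wild-type females (triangles), with wild-type males (circles) and knock-in males (squares); filled points have an adjusted p under 0.05. The lists spread to both sides of 0, from Adh1 at -3.98 to Krt23 at 4.09 in wild-type females.

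The 11 untested genes hold much of the taste cascade. The gustducin subunit gene Gnat3 had at most 33 counts in a library, Gnb3 at most 17, Gng13 at most 6 and the succinate receptor Sucnr1 at most 6. Chat, which makes acetylcholine, had at most 26, and the fate factors Hmx2 and Hmx3 at most 13 and 10. Between genotypes, 6 of the 39 passed in male tumours, 0 in male normal colon and 8 in female normal colon, beside 14.5%, 0.0126% and 16% of all genes. In knock-in mice 3 were higher and 3 lower in male tumours, and 5 were higher and 3 lower in female normal colon. The median log2 differences of the 39 were -0.07, 0.12 and 0.18 in this order, beside 0.05, 0.00 and 0.02 for all genes. In male tumours Hepacam2 was higher in knock-in mice by 1.86 (adjusted p = 0.00384 by edgeR), where 3 of 7 goblet cell genes were higher too, and Pla2g4a, a phospholipase that frees arachidonic acid, by 0.81 (0.0141). Plcg2 differed by -0.95 (0.0120) and Hpgds, the prostaglandin D synthase, by -0.78 (0.0123). Without knock-in tumour replicate 2 the calls on Pla2g4a, Plcg2 and Hpgds were lost. Those on Pla2g4a and Plcg2 were also lost without wild-type tumour replicate 3, and that on Pla2g4a without wild-type tumour replicate 1.

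The list of type 2 partners of tuft cells gave 12 tested genes of 18 listed. It is not confined to genes of immune cells, since it holds Retnlb, Clca1 and Ang4. In wild-type male tumours 4 were higher and 1 lower, in knock-in male tumours 3 higher, and in wild-type female tumours 6 higher and 1 lower. The shares of all genes were 16.5%, 10.4% and 25% higher and 19.3%, 9.97% and 24% lower in this order. Il1rl1, the IL-33 receptor, was highest in fold, at 2.52, 3.84 and 5.47, with adjusted p of 0.0471, 0.0175 and 0.000865 by edgeR. The call in wild-type males was lost without any of 5 of the 6 libraries, and that in knock-in males without normal replicate 1. Il33, which encodes its ligand and was named after its values were seen, rose by 1.28, 2.09 and 3.24, and the wild-type male call was lost without normal replicate 3 or tumour replicate 1. Ang4, also named after its values were seen, rose more than Il33 in wild-type females, by 4.54 (adjusted p = 0.000201 by edgeR). Il13ra1, a receptor chain for IL-13, stood at -1.05 in wild-type males and -0.82 in wild-type females. Between genotypes, 2 genes of the list were higher in knock-in male tumours and 3 lower in knock-in female normal colon, beside 14.5% and 16% of all genes passing. The lymphoid cytokines themselves were near the floor, with at most 4 counts in a library for Il13, 4 for Il4 and 10 for Il5, and none of them was among the tested genes.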

How the data were processed

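RNA was depleted of ribosomal RNA, turned into cDNA with random hexamers and read on a NovaSeq, per the labels' protocols. The deposited table holds raw counts per gene that the authors made with featureCounts after Trimmomatic and HISAT2 on mm10, per the submitters' processing notes and the table's name; versions and the annotation are not given in the sources used here. The authors' deposited table of DESeq2 results was not used. In the count table, a pair of columns of the knock-in female normal group share a name and were used as unnumbered replicates a and b.

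The counts were fitted with edgeR 4.0.16 (quasi-likelihood F test, two-sided, TMM, filterByExpr by group, robust, all 21 libraries, 1 coefficient per group) in R 4.3.3, with Benjamini-Hochberg adjustment over 15936 genes and a threshold of 0.05, for 9 comparisons and 3 interactions. Standard errors came from the fold change and F statistic. Log2 CPM used a prior count of 2, and 3 counts in a library were taken as the floor, which covers counting error only. Alternatives used limma 3.58.1 and DESeq2 1.42.0. The members and lists were chosen with earlier results of these data known. The text names all members. It also names the 2 higher and 2 lower other tuft cell genes of largest change past the threshold. This was done in the 3 tumour comparisons and in male tumours between genotypes. For the type 2 genes it was the 1 higher and 1 lower of largest change in the tumour comparisons. Il33 and Ang4 were added to these after their values were seen. Likeness genes had a mean of at least 50 counts. Older symbols were used for some genes, such as Lrmp. Counts were simulated for wild-type male tumours with the real group differences taken out and 200 of 15936 genes changed. Of those changed by 1 log2 unit 48.9% were recovered, and of those changed by 2 83.6%, with 2 false calls. In the real comparison 35.7% of genes passed, and several members had few counts, so these rates need not hold for the members. Replicate pairs within a group differed by more than sampling noise in all 21 pairs (chi-square per degree of freedom 6.60 to 63.4).

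Replicate numbers come from the library names. Deviations from the group means correlated between same-numbered wild-type male normal and tumour libraries at r = 0.169 to 0.215 in the 3 pairs. In the other comparisons at least 1 pair was under 0.1. The highest pair, at 0.461, was between knock-in and wild-type male normal colon, where libraries of different genotypes cannot share an animal. Pairs with unlike numbers were not compared, and the labels do not say that equal numbers share an animal. The main fit therefore did not pair libraries, and the numbers entered only the replicate block among the alternatives.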

Additional observations from a re-analysis of the deposited data

Results flagged for a closer look

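No member had an effect that differed between genotypes or sexes past edgeR's adjusted p of 0.05. Of the other tuft cell genes and type 2 partners, 7 did, and the groups of 3 libraries were too small for a check of single outlying libraries. The tumour effect differed between knock-in and wild-type males by 1.87 on the log2 scale for Hepacam2 (adjusted p = 0.0439), from -2.73 in wild-type to -0.85 in knock-in males. It differed by -1.85 for Matk (adjusted p = 0.0492) and by -1.45 for Plcg2 (adjusted p = 0.0406), both at positive log2 fold changes in wild-type males (1.00 and 0.93) and negative ones in knock-in males (-0.85 and -0.52, not past the test). Between wild-type females and males the tumour effect differed by 2.12 for Ascl2 (adjusted p = 0.0139), by -1.12 for Hpgds (adjusted p = 0.0424) and by 1.01 for Tubb5 (adjusted p = 0.0337). The genotype effect in normal colon differed between females and males by -2.21 for Clca1 (adjusted p = 0.00934) and by 1.02 for Tubb5 (adjusted p = 0.0208), all by edgeR. Leaving out each library in turn, which was chosen for these genes after the data were seen, ended 0 of 12 of these calls for Clca1, 1 of 12 for Ascl2 (wild-type female normal replicate 1, adjusted p = 0.0598) and 4 of 12 for Tubb5 between genotypes. It ended 7 of 12 for Plcg2, 8 of 12 for Hepacam2, 9 of 12 for Matk and 10 of 12 each for Hpgds and for Tubb5 between tumours.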

How the results depend on the processing

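The calls on Avil and Dclk1 in wild-type tumours and on Trpm5 in wild-type female tumours held under every alternative that tested the gene. The replicate block left the number of members called at 2, 1, 3, 0 and 0 in the tumour comparisons of wild-type males, knock-in males and wild-type females and in male tumours and male normal colon between genotypes, and changed no other call. The knock-in male count of 1 became 0 with epithelial scaling, limma voom or only the compared groups, and ranged from 0 to 1 with a library left out. Female normal colon between genotypes (1) gave 0 with a mean of at least 50 counts, since Trpm5 was then not tested, 2 with voom, and 0 to 1 with a library left out. Counts of 0 became 1 in male tumours between genotypes with voom and 0 to 1 with a library left out. Between sexes they became 2 with voom and 1 with only the compared groups in wild-type tumours, 1 with the DESeq2 Wald test and 2 with voom in wild-type normal colon, and 1 with the Wald test in knock-in normal colon, the last 2 comparisons at 0 to 1 with a library left out. For the interactions they became 1 with voom in all 3, 1 with the Wald test in the 2 that involve sex, and 0 to 1 with a library left out in that of genotype and tumour. Other tuft cell genes called in knock-in males (11) fell to 2 with only the compared groups and to 6 with a correction for GC content and length, added after the data were seen, and ranged from 5 to 15 with a library left out. In male tumours between genotypes (6) they were 10 with the Wald test, 10 with voom and 3 with the compared groups, and 1 to 7 with a library left out, and in female normal colon (8) 4 to 12 with a library left out. Only values that did not pass reversed: Alox5 in wild-type male tumours (0.0018 with epithelial scaling), and between genotypes in male normal colon Pou2f3 (0.042) and Avil (0.036) with that scaling and Trpm5 with DESeq2 size factors (-0.015), no filter (-0.0043), the Wald test (-0.015), voom (-0.23) and the GC correction (-0.052). Between sexes Pou2f3 (0.14) in wild-type and Dclk1 (0.11) in knock-in normal colon reversed with voom, Alox5 (-0.020) in knock-in normal colon with epithelial scaling, and the interaction of Dclk1 with sex (0.22) with that scaling. With a library left out, values that reversed ran as follows. For wild-type male tumours, Pou2f3 -1.63 to 0.047 and Alox5 -0.65 to 0.072. For male tumours between genotypes, Pou2f3 -1.56 to 0.20 and Trpm5 -0.74 to 0.14. For male normal colon between genotypes, Pou2f3 -0.17 to 0.050, Trpm5 -0.24 to 0.27 and Avil -0.48 to 0.35. For female normal colon between genotypes, Pou2f3 -0.72 to 0.092. For wild-type tumours between sexes, Dclk1 -0.053 to 0.26 and Pou2f3 -1.50 to 0.26. For wild-type normal colon between sexes, Pou2f3 -0.68 to 0.13. For knock-in normal colon between sexes, Dclk1 -0.17 to 0.14. For the tumour and genotype interaction, Pou2f3 -1.48 to 0.28, Trpm5 -0.74 to 0.13 and Alox5 -0.52 to 0.20. For the tumour and sex interaction, Dclk1 -0.28 to 0.026, Pou2f3 -1.43 to 0.33 and Alox5 -0.84 to 0.029. For the genotype and sex interaction, Pou2f3 -0.64 to 0.17 and Avil -0.78 to 0.046. The cause was not tested. Correlations between members moved within normal or tumour libraries, as given for Dclk1. Pou2f3, Il25 and Gfi1b had the fewest counts of the members.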
